A study of Rattus norvegicus with 8 samples.

Results

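The NMDA receptor subunits were followed in the dentate gyrus (DG) of ovariectomized (OVX) rats after status epilepticus (SE), in 4 oil-injected rats (COS) and 4 estradiol-replaced rats (CES). The subunits were taken as every non-control array spot whose gene name was Grin1, Grin2a, Grin2b, Grin2c, Grin2d, Grin3a or Grin3b. These were 7 of 35250 gene names on the array, 9 of 41012 probes and 45 of 43379 spots, and all 9 probes gave a valid signal in all 8 rats. All rats were adult female Sprague-Dawley rats of 150 to 200 g, OVX a week before hormone treatment. The COS rats received oil, and the CES rats received 4 doses of 2 μg estradiol, 24 h apart, of which the records place 2 before and 2 after SE. SE was induced in both groups by 16 mg/kg kainic acid and was ended with pentobarbital after 5 h, as the sample records state. The methods of the study give a lower kainic acid dose, estradiol given before SE only, a different way of ending SE, and 2 different sampling times, so the interval between SE and sampling is not settled. Rats without SE were not analysed here, so every value below sets one group of seizured rats against the other, and a departure from the state before SE was not measured. The tissue was whole DG, and in such bulk tissue fewer cells of a type and less RNA per cell cannot be told apart.

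The NMDA receptor is a glutamate-gated cation channel that needs glutamate and the co-agonist glycine or D-serine, and it opens fully only when depolarization has driven magnesium out of its pore. Every receptor holds GluN1, the product of Grin1, which binds the co-agonist. The GluN2 subunits, from Grin2a to Grin2d, bind glutamate and set the channel's kinetics, magnesium block and calcium entry, while the GluN3 subunits, from Grin3a and Grin3b, bind glycine and lower calcium permeability. In the hippocampus GluN2A and GluN2B are the main GluN2 subunits of principal neurons, and Grin2a is known to rise and Grin2b to fall relative to each other as synapses mature.

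The sequences of 8 probes are shown because each value stands for the transcripts that its probe matches. Their sequences and positions on rat build rn4 are those of the scanner output, and for 4 probes only the first 30 bases are printed. No exon annotation of this build was used here.
Grin1, 10 spots, first 30 bases: accagggagcgccatctgcctcccagtccg
Grin1, N1 probe, 1 spot: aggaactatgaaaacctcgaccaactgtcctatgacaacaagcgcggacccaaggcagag
Grin2a, 10 spots, first 30 bases: caggaaactcttagacaattatttctatac
Grin2b, 10 spots: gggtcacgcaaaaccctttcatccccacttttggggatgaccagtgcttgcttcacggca
Grin2c, 10 spots, first 30 bases: taggctggggtttcttttcataggggcatt
Grin2d, 1 spot: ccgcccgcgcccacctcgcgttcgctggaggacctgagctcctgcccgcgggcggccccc
Grin3a, 1 spot: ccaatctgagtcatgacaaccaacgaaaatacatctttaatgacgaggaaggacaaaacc
Grin3b, 1 spot, first 30 bases: ggcgcctgctgagagctgaggaaccacaag

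The 10-spot Grin1 probe lies at chr3:3453883-3453942 on the minus strand. The other Grin1 probe spans 1003 bases of the genome, chr3:3471906-3472908, with 60 bases of sequence, so it crosses a splice junction, and its bases encode the N1 cassette, an alternatively spliced insert in the extracellular part of GluN1. The N1 probe thus reads the Grin1 transcripts that carry the insert. The 10-spot Grin2a probe lies on the plus strand, at chr10:6005790-6005849, and a second Grin2a probe has 1 spot. The probes of the other subunits lie on minus strands, at chr4:172722609-172722668 for Grin2b, chr10:105323249-105323308 for Grin2c, chr1:96309502-96309561 for Grin2d, chr5:66407195-66407254 for Grin3a and chr7:11244019-11244078 for Grin3b. The Grin2d probe is the richest in G and C, at 81.7% of its bases, against 35.0% for the 10-spot Grin2a probe. No run of bases longer than 8 is shared by the probes of different subunits.

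Each of 4 two-colour arrays on a single slide carried 2 rats of the same group, one labeled with Cy3 (replicates 1 and 3) and one with Cy5 (replicates 2 and 4). A level here is the log2 of the background-subtracted signal over the median of the valid spots of the same label, where a spot is valid if its foreground is at least 2 times its background, and levels of different probes are not comparable. Between 70.7% and 88.9% of spots were valid in a rat and none was saturated. The share was lower in the Cy5 rat of every array, and 3 of the 4 lowest shares belonged to CES rats. Differences were tested by limma across 21372 genes, with the dye and the array in the fit and Benjamini-Hochberg adjustment, at a threshold of 0.05. Under this scaling the median gene was lower in CES than in COS by a log2 difference of -0.25, so each subunit's difference is also given relative to that median.

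Grin2a and Grin2c were higher in CES than in COS, Grin2a by 2.41-fold and Grin2c by 2.36-fold, and no subunit was lower by the test. The remaining 5 subunits did not pass it. Thus 2 of 7 subunits were called higher, beside 5.79% of all genes, and 0 of 7 were called lower, beside 28.3% of all genes. In 2 of 7 subunits the lowest CES rat exceeded the highest COS rat, against 1.61% of all genes, and in 0 of 7 the highest CES rat stayed under the lowest COS rat, against 19.8% of all genes. The median difference of the 7 subunits was 0.26, which is 0.52 above the median of all genes.

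Grin2a encodes GluN2A, which gives receptors with fast deactivation. Its level was 0.80, 0.65, 0.54 and -0.41 in COS replicates 1 to 4 and 2.15, 1.00, 2.15 and 1.34 in CES replicates 1 to 4. All CES rats lay above all COS rats, with COS replicate 4 and CES replicate 2 the lowest of their groups. COS averaged 0.39 ± 0.55 (SD, n = 4) and CES 1.66 ± 0.58 (SD, n = 4), which is a log2 difference of 1.27 with a standard error of 0.24, or 2.41-fold, at an adjusted p of 0.00579. Within the Cy3 rats the difference was 1.48 and within the Cy5 rats 1.05. Both Grin2a probes were called, the 10-spot probe with a difference of 1.23 (adjusted p = 0.00654) and the second probe with 1.44 (adjusted p = 0.00413), where 5.48% of the 25698 probes tested were called higher and 29% lower. The second probe read 1.47, 1.20, 1.33 and 0.66 in the COS rats and 2.99, 1.66, 3.18 and 2.61 in the CES rats, so its groups did not overlap either. Grin2a did not keep its call when the background was corrected by normexp (1.10, adjusted p = 0.0689) and without COS replicate 3 (1.21, adjusted p = 0.0526), while its second probe was called with normexp (1.38, adjusted p = 0.0236). The study named Grin2a and Grin2d among receptor genes that SE lowered without estradiol but not with it. It set each SE group against its own rats without SE, not the SE groups against each other. The same seizured rats entered that choice, so the direction of Grin2a and Grin2d here is not independent evidence.

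Grin2c encodes GluN2C, whose receptors deactivate slowly and are weakly blocked by magnesium, and which is best known from cerebellar granule cells and, in the forebrain, from astrocytes and some interneurons. Its level was 3.66, 2.85, 3.02 and 2.73 in COS replicates 1 to 4 and 4.61, 3.86, 4.38 and 4.37 in CES replicates 1 to 4. The groups did not overlap, and the lowest CES rat, replicate 2, stood close to the highest COS rat, replicate 1. COS averaged 3.07 ± 0.41 (SD, n = 4) and CES 4.30 ± 0.32 (SD, n = 4), which is a log2 difference of 1.24 with a standard error of 0.20, or 2.36-fold, at an adjusted p of 0.00417. The difference was 1.15 within the Cy3 rats and 1.32 within the Cy5 rats. Grin2c was called in 22 of the 23 fits that were run and Grin2a in 20 of 23, and the direction held in all of them. Neither passed the methods' t-test after adjustment, by which 0 genes did so and 6114 had an unadjusted p under 0.05, against 9657 by limma.

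**Figure D1:**
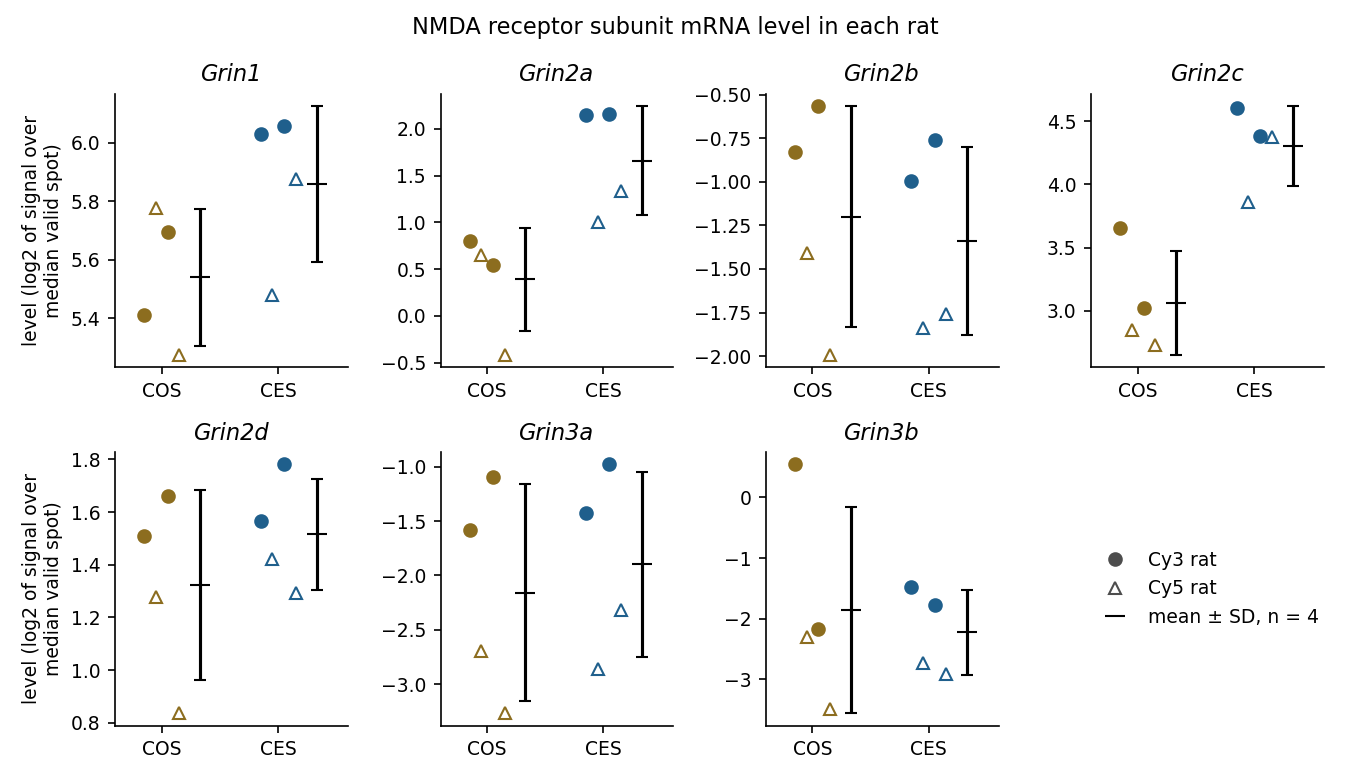
Level of each NMDA receptor subunit mRNA in the 4 COS and 4 CES rats (y axis, log2 of background-subtracted signal over the median valid spot of the same label, with its own range in each panel); filled circles are Cy3 rats, open triangles Cy5 rats, and the bar beside each group is the mean ± SD. The COS and CES points are fully apart for Grin2a and Grin2c and overlap for the other subunits, and in Grin2b, Grin3a and Grin3b the Cy5 rats of each group lie below its Cy3 rats.

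Grin1, the obligatory subunit, gave bright spots, with a foreground of 273 to 877 times background on the 10-spot probe. Its level was 5.41, 5.78, 5.70 and 5.27 in COS replicates 1 to 4 and 6.03, 5.48, 6.06 and 5.88 in CES replicates 1 to 4. CES replicate 2 lay below the higher pair of COS rats, and the other CES rats lay above all COS rats. COS averaged 5.54 ± 0.24 (SD, n = 4) and CES 5.86 ± 0.27 (SD, n = 4), which is a log2 difference of 0.32 with a 95% confidence interval of -0.10 to 0.74 and an adjusted p of 0.211. The N1 probe gave a difference of 0.18 (adjusted p = 0.570). The scanner software marked it as well above background in 2 of 4 CES rats, both labeled with Cy5, and in 0 of 4 COS rats. The signal for transcripts with the N1 insert is therefore only bounded in COS, and no fold is given.

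Grin2b encodes GluN2B, the slower partner of GluN2A that prevails in the immature brain. Its level was -0.83, -1.41, -0.56 and -1.99 in COS replicates 1 to 4 and -0.997, -1.84, -0.76 and -1.76 in CES replicates 1 to 4. The groups overlapped along their whole range, and the Cy5 rats of both groups were the lower ones. The difference was -0.14, with a 95% confidence interval of -0.54 to 0.26 (adjusted p = 0.578), and -0.18 within the Cy3 rats and -0.10 within the Cy5 rats. The probe was dim, at 3.59 to 6.66 times background, and 27 of 40 spot readings in COS and 24 of 40 in CES were well above background. In COS replicate 3 this was 0 of 10 spots.

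Grin2d encodes GluN2D, which has the slowest deactivation and is found in hippocampal interneurons. Its level was 1.51, 1.28, 1.66 and 0.84 in COS replicates 1 to 4 and 1.57, 1.42, 1.78 and 1.29 in CES replicates 1 to 4. The groups overlapped and the difference was 0.19, with a 95% confidence interval of -0.18 to 0.57 (adjusted p = 0.401). Taken against the median gene of the same rat, Grin2d stood at 0.23 to 0.40 in the COS rats and at 0.88 to 0.93 in the CES rats. These ranges did not overlap, and by this measure 17.3% of all genes had every CES rat above every COS rat.

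Grin3a and Grin3b encode the glycine-binding GluN3A, which is known as a brake on synapse maturation, and GluN3B, best known from motor neurons. Grin3a stood well above background in 2 of 4 CES rats, the same pair as for the N1 probe, and in 0 of 4 COS rats. Its measured levels were -1.59, -2.70, -1.09 and -3.27 in COS and -1.42, -2.86, -0.98 and -2.32 in CES, with a difference of 0.26 (adjusted p = 0.378). No fold is given, since the COS rats give only a bound. Grin3b was well above background in 1 COS rat and 2 CES rats. It read 0.54, -2.30, -2.18 and -3.49 in COS and -1.48, -2.73, -1.78 and -2.92 in CES, so COS replicate 1 stood far above the other COS rats, at 18.0 times background. The difference was -0.37 (adjusted p = 0.605) with that rat and 0.25 (adjusted p = 0.578) without it. The depth of the signal for these subunits does not allow a statement on either group.

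The probes with 10 spots show the spread between spots within a rat. Within a rat, the SD over the 10 spots, on the log2 scale, was 0.15 to 0.27 for Grin1, 0.25 to 0.32 for Grin2a, 0.16 to 0.35 for Grin2b and 0.18 to 0.37 for Grin2c. For Grin2a, COS spots ran up to 1.04 and CES spots down to 0.47, and the CES spots under 1.04 came from CES replicates 2 and 4. For Grin2c, COS spots ran up to 3.92 and CES spots down to 3.39.

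**Figure D2:**
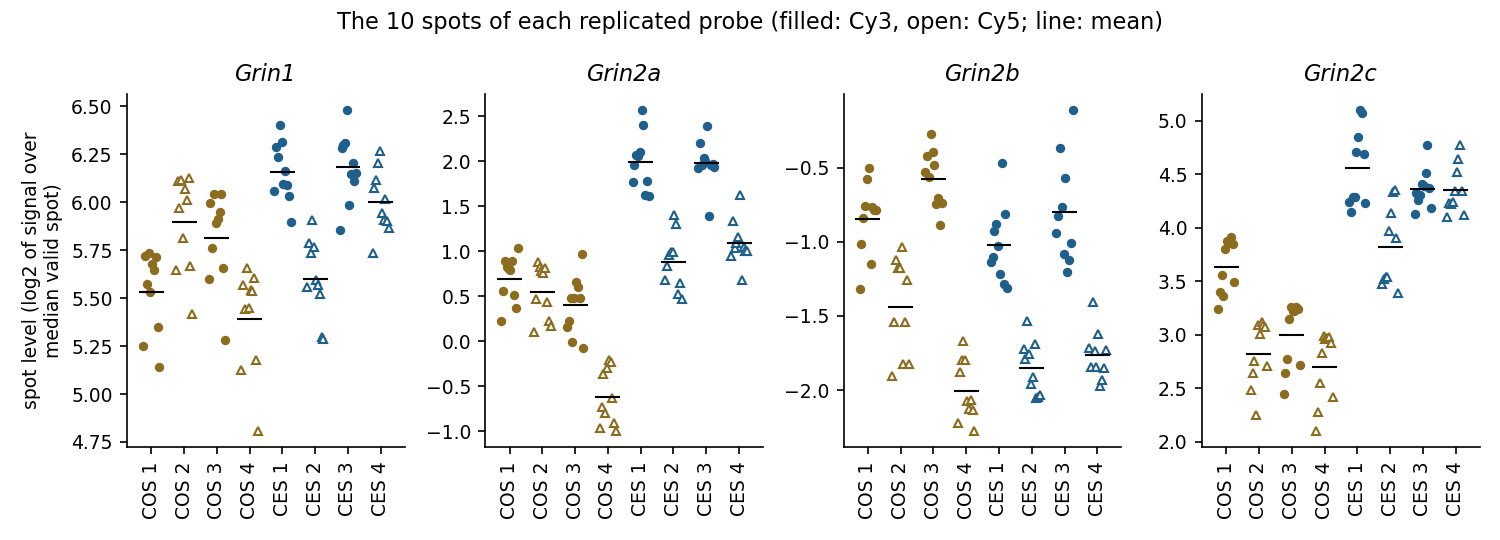
Each of the 10 spots of the replicated probes of Grin1, Grin2a, Grin2b and Grin2c in every rat (y axis, spot level as log2 of signal over the median valid spot; filled, Cy3; open, Cy5; line, mean of the spots). The means of the CES rats are raised in Grin2a and Grin2c, and many spots of CES replicates 2 and 4 in Grin2a, and of CES replicate 2 in Grin2c, lie under the highest COS spot.

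How the channels were scaled decided whether Grin1 and Grin2d passed the test. Each channel's own valid spots set its scale above. When every channel was scaled to the same 27642 spots, valid in all 8 rats, the median gene stood at 0.15 rather than -0.25, and 4 of 7 subunits were called higher, beside 15.7% of all genes, and 0 of 7 lower, beside 8.05% of all genes. These were Grin1 (0.72, adjusted p = 0.0483), Grin2a (1.67), Grin2c (1.64) and Grin2d (0.59, adjusted p = 0.0210), while Grin2b stood at 0.26 and Grin3b at 0.03, both above 0 here. Taken against the median gene of each rat, 4 of 7 subunits had all CES rats above all COS rats, namely Grin1, Grin2a, Grin2c and Grin2d, where 17.3% of all genes did so. Relative to the median gene the differences were 1.52 for Grin2a, 1.49 for Grin2c, 0.57 for Grin1, 0.52 for Grin3a, 0.45 for Grin2d, 0.12 for Grin2b and -0.12 for Grin3b. Of all called genes, 1238 were higher and 6054 lower with each channel's own spots, against 3352 higher and 1720 lower with the shared spots, so the calls for Grin1 and Grin2d depend on the scaling, while Grin2a and Grin2c were called under both.

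**Figure D3:**
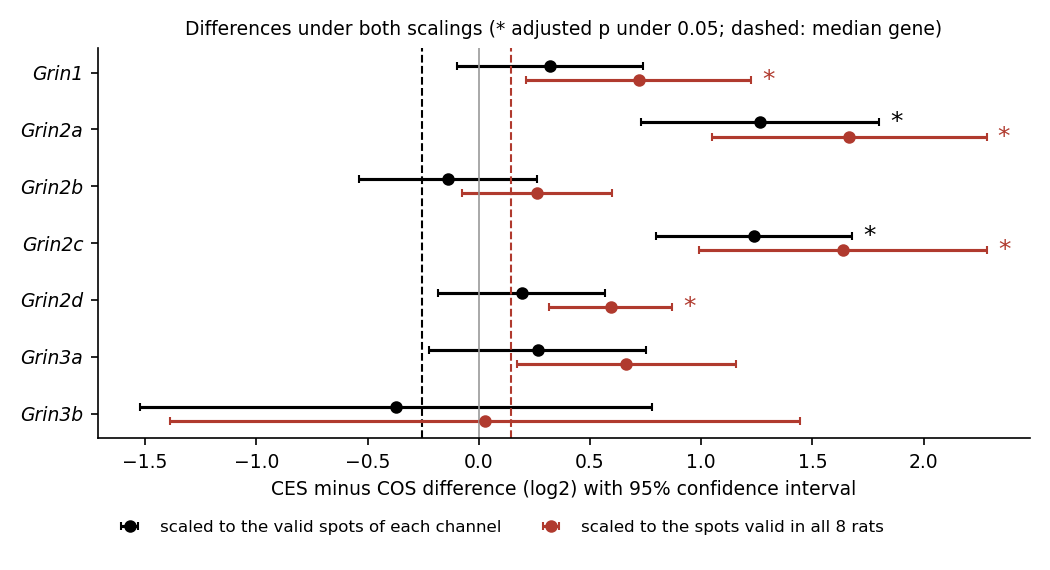
CES minus COS difference of each subunit (x axis, log2, with its 95% confidence interval) when each channel was scaled to its own valid spots (black) and to the spots valid in all 8 rats (red); stars mark an adjusted p under 0.05 and dashed lines the median of all genes, at -0.25 and 0.15. Grin2a and Grin2c carry a star under both scalings, and Grin1 and Grin2d under the second alone.

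A ratio of subunits within a rat is free of any single factor by which the channel was scaled. The log2 ratio of Grin2a to Grin2b was 1.63, 2.05, 1.11 and 1.58 in COS replicates 1 to 4 and 3.15, 2.84, 2.91 and 3.09 in CES replicates 1 to 4. All CES rats lay above all COS rats, with a gap of 0.78 between the groups. The ratio differed by 1.40, and by 1.66 within the Cy3 rats and 1.15 within the Cy5 rats. Grin2b was near background in the Cy3 rats, with 0 of 10 spots well above it in COS replicate 3, 7 of 10 in COS replicate 1 and 2 of 10 in CES replicates 1 and 3, against 10 of 10 in each Cy5 rat, so no fold is given and the filter for signals well above background leaves this ratio out. Since signals of different probes are not comparable, the ratio itself is no measure of relative abundance, and its difference between groups is the result.

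The ratio of Grin2a to Grin1 differed by 0.95 and that of Grin2c to Grin1 by 0.92, each with no overlap between the groups. The log2 ratio of Grin2c to Grin1 lay between -2.93 and -1.76 in COS and between -1.68 and -1.42 in CES. The gap between the groups was 0.08 for Grin2c to Grin1 and 0.07 for Grin2a to Grin1. With normexp the ratio of Grin2a to Grin1 differed by 0.61 (exact permutation p = 0.114) and its groups overlapped. Of the 8 ratios tested, those of Grin2a to Grin2b, Grin2a to Grin1 and Grin2c to Grin1 reached p = 0.0286 in the exact two-sided permutation test over rats, which is the smallest p that 4 rats against 4 allow, and an adjusted p of 0.0762 over the 8 ratios, so none passed after adjustment. Grin2b to Grin1 differed by -0.46 (exact permutation p = 0.257) with overlapping groups, while with loess (-0.44) and with quantile normalization (-0.44) its groups did not overlap (exact permutation p = 0.0286, adjusted p = 0.0571 in each). Grin3a to Grin2b differed by 0.40 (exact permutation p = 0.171). Grin2d to Grin1 differed by -0.13, with 0.15 in the Cy5 rats against -0.40 in the Cy3 rats, and the ratios of Grin3a and Grin3b to Grin1 overlapped between groups throughout.

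**Figure D4:**
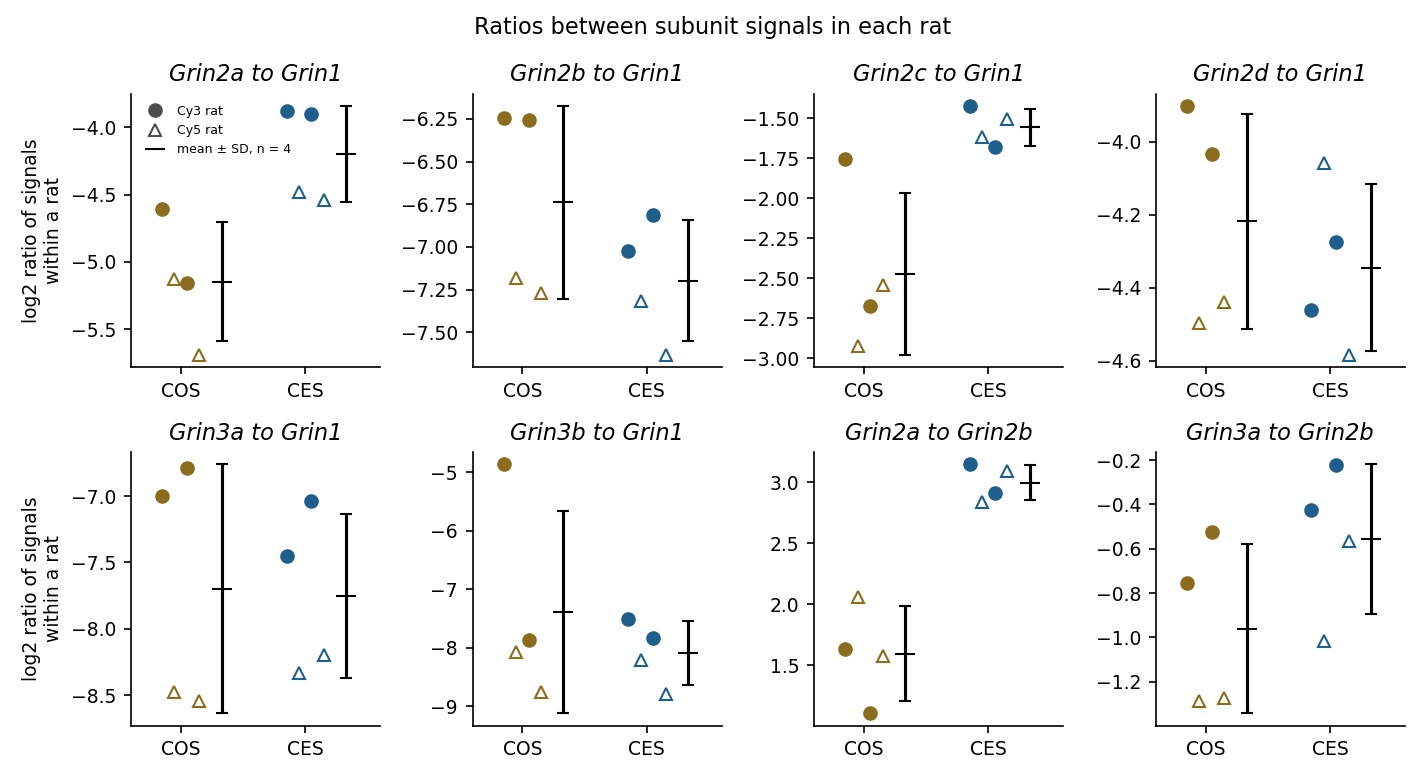
Log2 ratio of the signals of 2 subunits within each rat (y axis, own range per panel) in COS and CES; filled circles are Cy3 rats, open triangles Cy5 rats, bars the mean ± SD of 4 rats. The groups are apart for Grin2a to Grin1, Grin2c to Grin1 and Grin2a to Grin2b, and overlap for the other 5 ratios.

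The genes that supply, anchor and modulate the receptor moved in both directions. Of 81 genes on 6 lists, 71 were quantified, of which 9 were called higher and 15 lower in CES, while the shared-spot scaling gave 21 higher and 7 lower. Over all genes tested the shares called were 5.79% higher and 28.3% lower, or 15.7% and 8.05% with the shared-spot scaling, and the count of each list that follows is to be read against these. With that scaling the counts became 2 higher and 3 lower for co-agonist supply, 2 and 1 for anchoring and trafficking, 8 and 0 for kinases and phosphatases, 3 and 3 for modulators, and 1 and 0 for the kynurenine pathway. Each gene called and named below kept its direction in every fit that quantified it, though not its call. The lists were described by counts, and nothing particular to a list was tested.

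Among 11 quantified genes of co-agonist supply, 1 was called higher and 4 lower, and the median difference was -0.03. Slc7a10, the D-serine and glycine transporter of astrocytes and neurons known as Asc-1, averaged -0.05 ± 0.48 (SD, n = 4) in the COS rats and 2.15 ± 1.14 (SD, n = 4) in the CES rats, a rise of 2.20 (adjusted p = 0.00518). CES replicate 2, at 0.54, lay below COS replicate 1 at 0.57, and the other CES rats lay between 2.25 and 3.13. Slc1a5, a neutral amino acid exchanger that also carries serine, fell by 3.03 (adjusted p = 0.00417) from levels of 3.85 to 4.59 in COS to 0.46 to 3.05 in CES, again with CES replicate 2 nearest to COS. Shmt2, the mitochondrial enzyme that interconverts serine and glycine, fell by 1.53, and Psph, which makes the last step of serine synthesis, fell by 0.93. Slc1a4, another neutral amino acid transporter, fell by 0.72, but was well above background in only 3 COS and 2 CES rats. Srr, the enzyme that makes D-serine, had a difference of 0.44 and did not pass the test (adjusted p = 0.0789).

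Of 17 quantified anchoring and trafficking genes, 2 were called higher and 5 lower. Lin7b, a partner of the PSD-95 family in receptor transport, rose by 1.35 (adjusted p = 0.0138), and Akap5, which anchors kinases and calcineurin at the synapse, rose by 1.19 (adjusted p = 0.0187), in both cases with overlap of the groups. Rack1, a scaffold that binds GluN2B and Fyn, fell by 1.19 (adjusted p = 0.00533), and the neurofilament Nefl fell by 0.82. The endosomal sorting protein Snx27 fell by 0.77 and Dlg1, which encodes SAP97, fell by 0.61. Nefl was called in 17 of 23 fits, Snx27 in 16 and Dlg1 in 10, so these calls depend on the setting. With normexp and without COS replicate 3, 0 genes of this list were called lower. Dlg4, which encodes PSD-95, the main scaffold of the receptor, had a difference of 0.25 (adjusted p = 0.466).

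Of 18 quantified kinases and phosphatases that act on the receptor or on its calcium signal, 5 were called higher and 0 lower, with a median difference of 0.15, or 0.40 relative to all genes. Camk2a, a subunit of the calcium/calmodulin-dependent kinase that docks on GluN2B, averaged 2.86 ± 0.56 (SD, n = 4) in the COS rats and 3.79 ± 0.24 (SD, n = 4) in the CES rats, a rise of 0.92 (adjusted p = 0.0256). Camk2g, another subunit of that kinase, rose by 0.80 and Ppp3ca, a catalytic subunit of calcineurin, by 0.78. The groups did not overlap in Camk2a and Ppp3ca, where 1.61% of all genes had every CES rat above every COS rat. For Camk2a they nearly touched, with COS replicate 2 at 3.490 and CES replicate 4 at 3.494. The tyrosine kinases Fyn and Src had differences of -0.46 and -0.03 and did not pass the test.

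Of 9 quantified calcium and Ras effectors, 1 was called, Rheb, the GTPase that activates mTOR, which fell by 0.77 (adjusted p = 0.0256). With the shared-spot scaling 5 of the 9 were higher and 0 lower, and Rheb, at -0.37 (adjusted p = 0.179), was not called. Of 11 modulators, 1 was called higher and 4 lower. Neto1, an auxiliary protein that helps to retain GluN2A at synapses, averaged 1.45 ± 0.23 (SD, n = 4) in the COS rats and 2.69 ± 0.49 (SD, n = 4) in the CES rats, a rise of 1.24 (adjusted p = 0.00491) with no overlap. Nrg1, a ligand of ErbB4 receptors, fell by 2.59 (adjusted p = 0.00350), from 1.00 to 1.71 in the COS rats to -2.04 to -0.52 in the CES rats. Adcyap1, which encodes the peptide PACAP, fell by 1.64 and Bdnf, the neurotrophin that acts through TrkB, fell by 1.48. The CES rats were all under the COS rats in each of these 3, which held for 19.8% of all genes. Of 5 quantified genes of the kynurenine pathway, which makes endogenous ligands of the receptor, Tdo2 was called lower but was well above background in 0 of 8 rats, and no fold is given.

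**Figure D5:**
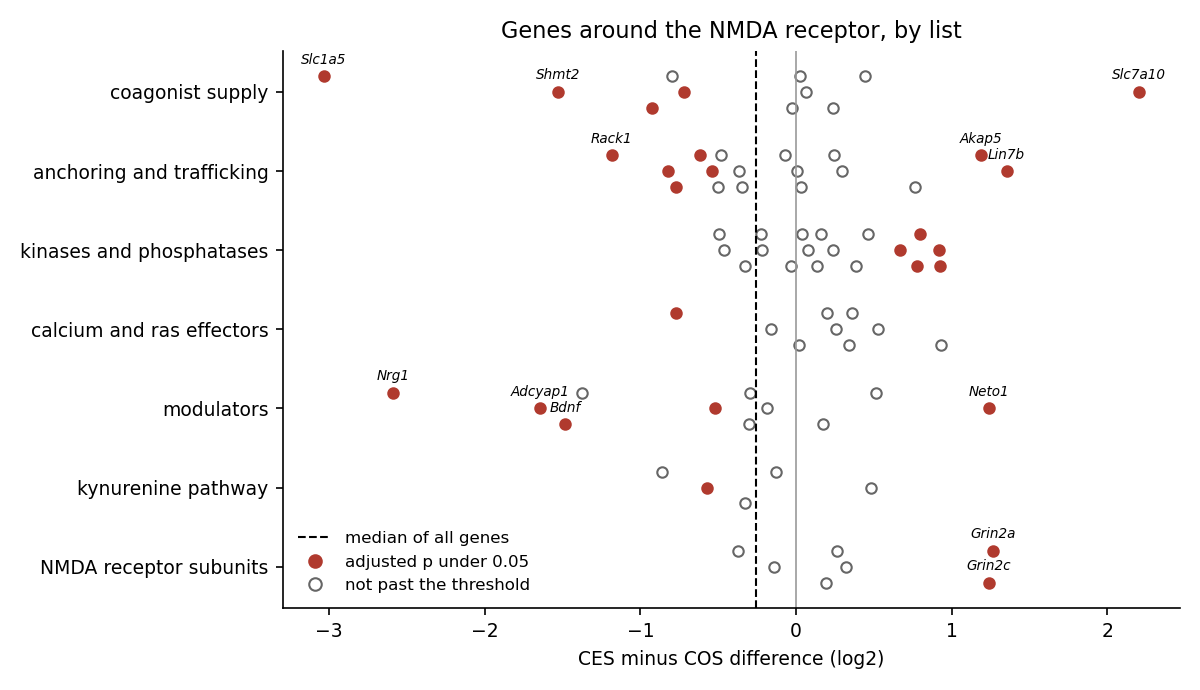
CES minus COS difference (x axis, log2) of each quantified gene on 6 lists of genes around the NMDA receptor and of the 7 subunits; filled red points have an adjusted p under 0.05, open points do not, and the dashed line is the median of all genes, at -0.25. Called genes lie on both sides in the co-agonist, anchoring and modulator lists, and to the right alone among the kinases and phosphatases and the subunits.

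Some markers of cell types also differed between the groups, in both directions. Their part in the differences of Grin2a and Grin2c was not tested. Of the granule cell markers, Prox1 was not valid in all rats, Calb1 and C1ql2 were well above background in all rats and Tdo2 in none, and 3 of 4 quantified were called lower. These were Tdo2, C1ql2, which fell by 1.23, and Dsp, which fell by 1.24. Dsp was well above background in only 3 of 4 COS and 2 of 4 CES rats, so the size of its fall is uncertain. With the shared-spot scaling 0 of the 4 were called, with C1ql2 at -0.83 (adjusted p = 0.0586) and Dsp at -0.84 (adjusted p = 0.0744). The markers of area CA1, which adjoins the DG, were both higher, Wfs1 by 0.98 (adjusted p = 0.00957) and Pou3f1 by 2.23 (adjusted p = 0.00341). The sum of a list is the log2 of its genes' signals added within a rat, so its brightest probes weigh most. For CA1 it ran from 2.11 to 2.50 in COS and from 2.82 to 4.21 in CES. Microglia and macrophage markers were called lower in 4 of 6, or 2 of 6 with the shared-spot scaling, with sums of 5.74 to 6.67 in COS and 4.22 to 4.98 in CES. Interneuron markers were called lower in 2 of 6, Sst and Npy, whose signals were the brightest of that list. The sums of this list were 8.39 to 9.08 in COS and 6.76 to 8.24 in CES. Gad1 (-0.57), Gad2 (-0.58) and Slc32a1 (-0.33) overlapped between the groups and were not called. Pvalb, at 0.51, lay in the other direction and was not called either. Astrocyte markers were called higher in 3 of 7, Gjb6, Gja1 and Aldh1l1, with overlapping sums of 7.44 to 7.62 and 7.31 to 7.98. Gfap, on the same list, went the other way, at -1.19 (adjusted p = 0.0618) with overlap of the groups. Slc1a2 (0.31), Aqp4 (0.04) and Slc1a3 (-0.07) were not called either. Neuronal markers were called higher in 2 of 6 and lower in 1, oligodendrocyte markers in 0 of 6, precursor markers lower in 1 of 4, and endothelial markers lower in 2 of 4. The shared-spot scaling gave 3 neuronal markers higher and 0 lower, 1 interneuron marker higher and 2 lower, and 0 precursor and 0 endothelial markers called, and left the counts for CA1 and astrocytes at 2 and 3 higher. Choroid plexus markers were called in 0 of 5 and their sum ranged from 3.77 to 9.30 in COS and 4.05 to 7.65 in CES, highest in COS replicate 2. With each channel scaled to its own valid spots, the groups' sums overlapped for all lists other than CA1, microglia and interneurons. The sums were not taken with the shared-spot scaling. Another scaling shifts all sums of a rat alike and can change which lists overlap.

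The genes whose level followed Grin1 most closely over the 8 rats were Dgkz, a diacylglycerol kinase (Pearson r = 0.982), the pannexin Panx2 (r = 0.979) and Mapk10, the neuronal Jun kinase (r = 0.975), with CES minus COS differences of 0.36 to 0.43. For Grin2a the closest 3 were expressed sequence tags without a gene name, with r of 0.990 to 0.998 and differences of 0.66 to 0.98. These are descriptions over 8 points that share arrays, dye and group.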

How the data were processed

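DG RNA of 8 OVX rats after SE (4 COS, 4 CES) was measured on 4 two-colour Agilent arrays. The authors deposited scanner files that hold foreground and background intensity per spot and dye, extracted with Agilent Feature Extraction 10.7.3.1 and not yet normalized, and a table of log2 values, which equal the log2 of the median signal minus background up to a constant per column. Groups and dyes came from the sample records. Nothing states whether rats were pooled or housed apart, and the p-values measure the spread between these samples.

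Spots counted as valid where the foreground reached 2 times the local background. From the mean signal of a spot its median background was subtracted, and the rest was expressed over the median valid spot of that label in the array. The gene level is the log2 of the mean over those of its spots that were valid in every rat. Names came from RefSeq accessions for 17512 of 41012 probes and from the files otherwise. The groups were compared with limma 3.58.1, under R 4.3.3 (dye fixed, array as random block by duplicateCorrelation with statmod 1.5.0, two-sided, Benjamini-Hochberg). The consensus correlation of the array block was -0.0065, and each array holds 1 group. The number of arrays limits the precision, with a median standard error of 0.20 (log2). Tested on simulated data of this layout, of 200 changed genes the fit recovered 90% of those changed by 2 and 53% of those changed by 1 (log2), with 13 false calls among 156. The simulation changed 200 of 21372 genes, equally up and down, with no shift in scaling. The fit of the data called 1238 genes higher and 6054 lower, so these rates cannot be carried over to it. Within-rat ratios were compared by exact permutation tests with scipy 1.17.1 (Python 3.11.15). These tests exchanged single rats between the groups and took no account of the dye or of the array that 2 rats shared.

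Alternatives covered background correction, the processed signal, normalization, filters, covariates, probe choice, the deposited table, the methods' t-test and leaving out each rat. The subunits and gene lists were chosen with earlier results of these data known. Of each list, up to 4 called genes with the largest difference in each direction are named, apart from 2 genes that, like 1 probe sequence, are not reported here, and Srr, Dlg4, Fyn and Src were added after their values were seen, as genes that did not pass the test.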

Additional observations from a re-analysis of the deposited data

How the results depend on the processing

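The fits across genes were recomputed under 22 other settings, the ratios under up to 18 and the single probes under 4. Grin2a was higher in CES in all 23 fits (1.10 to 1.72, adjusted p 4.08e-05 to 0.110) and lost its call with normexp, without COS replicate 3 (adjusted p = 0.0526) and with the methods' t-test (adjusted p = 0.110). Grin2c was higher in all 23 (1.14 to 1.69) and lost its call with the methods' t-test alone (adjusted p = 0.0773). Subunits called higher numbered 1 with normexp, 4 with the shared-spot scaling and 4 with the deposited log2 table, 0 with the methods' t-test, and 1 to 2 when a rat was left out, and no subunit was called lower in any fit. Grin2d was also called with loess and with quantile normalization, and Grin1 with the filter for signals well above background. That filter left Grin1, Grin2a, Grin2c and Grin2d and moved the subunits' median relative to all genes to 1.07. A foreground of at least 3 times background left out Grin3a and Grin3b.

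Grin2b reversed to 0.17 with loess, 0.18 with quantile normalization, 0.26 with the shared-spot scaling and 0.25 with the deposited table. Grin3a reversed to -0.0047 and the N1 probe of Grin1 to -0.054 with normexp. Grin3b reversed to 0.028 with the shared-spot scaling, 0.0060 with the deposited table and 0.25 without COS replicate 1, and ranged from -0.74 to 0.25 when a rat was left out. None of these passed the test in any fit, and the cause was not tested. The ratio of Grin3a to Grin1 reversed to 0.19 with the processed signal and ranged from -0.34 to 0.25 when a rat was left out. That of Grin3b to Grin1 ranged from -1.15 to 0.15. With a rat left out the permutation test cannot reach 0.05. The ratios of Grin2a and Grin2c to Grin1 reached an adjusted p of 0.0429 to 0.0476 with the 2 stricter filters, which leave fewer ratios to adjust for.

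Genes called higher and lower over all genes numbered 123 and 454 with normexp, 3044 and 1896 with loess, 3059 and 2226 with quantile normalization, 3352 and 1720 with the shared-spot scaling, 421 and 2789 with no filter on valid spots, 2225 and 880 with the filter for well above background, and 3285 and 1936 with the deposited table. With 3 times background 2835 were lower. The methods' t-test called 0 and 0 after adjustment, with 6114 genes at an unadjusted p under 0.05 against 9657 by limma. When a rat was left out, 262 to 1860 genes were higher and 932 to 7029 lower, the lowest of both without COS replicate 3 (262 and 932), while the number higher was 511 without COS replicate 1, 534 without COS replicate 4, 534 without CES replicate 1 and 1860 without CES replicate 2, and the number lower was 3643, 3994 and 2493 without COS replicate 1, COS replicate 2 and CES replicate 1.

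On the gene lists, 3 were higher and 2 lower with normexp, 17 and 8 with loess, 18 and 9 with quantile normalization, 21 and 7 with the shared-spot scaling, 2 and 9 with no filter, 17 and 5 with the filter for well above background, 21 and 9 with the deposited table and 0 and 0 with the methods' t-test. When a rat was left out, 2 to 13 were higher and 6 to 20 lower, with 2 and 6 without COS replicate 3. Counts over the lists and the settings for single probes were added after seeing the data.

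Rats with the same replicate number share a dye, and their deviations correlated at 0.209 to 0.336, but at -0.280 to 0.080 once the dye was removed, so the numbers were not taken as pairs. With the replicate block, 1077 genes were higher and 6147 lower, Grin2a had an adjusted p of 0.0126 and Grin2c of 0.00652, and no subunit's call changed.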
